A study of Mus musculus with 14 samples.

Results

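Complement is a cascade of plasma proteins that marks and kills microbes, and the liver makes most of it. C1q and the mannose-binding lectins recognize a target, and their serine proteases cleave C4 and C2 to build an enzyme that cleaves C3. The alternative pathway, through factor B and factor D, amplifies C3 cleavage. Cleavage of C5 then starts the assembly of C5b, C6, C7, C8 and C9 into a pore in the target membrane, and regulators in plasma and on host cells limit each step. Hepatocytes secrete most of the components, whereas C1q, properdin, ficolin A and the anaphylatoxin receptors are known mainly from macrophages, which in liver are the Kupffer cells.

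The 33 complement genes described here were chosen by symbol. Array probes were assigned to them through the RefSeq accession of the probe, and the brightest probe represented each gene. Of the 33 genes, 32 had a matched probe, out of 19751 genes with a matched accession on the array, and C7 had none. By known main source, 22 genes were assigned to hepatocytes, 7 to macrophages and 4 to other cells, and these sources are background knowledge that was not measured. Probes of 29 genes were well above background in all 28 channels of the 14 arrays. The other 3 were dim, with Cfd above background in 13 channels, C5ar1 in 12 and C3ar1 in 24.

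RNA came from livers of male (M) and female (F) CD-1 mice whose ages were 3 wk, 4 wk and 8 wk, with no treatment named, and groups carry the sex and the age in their name, as M8. Males were set against females at each age (M8/F8, M4/F4 and M3/F3), and adult liver against younger liver of the same sex (F8/F4, F8/F3, M8/M4 and M8/M3). Each of these 7 comparisons had 2 arrays (replicates 1 and 2) with separate RNA pools and exchanged dyes. Pools held 5 mice at 3 wk and 6 mice at 4 and 8 wk. All mice were of this outbred stock, and the comparisons share groups, so they are not independent of each other. With whole-liver RNA, fewer cells of a type and less RNA per cell cannot be told apart. Values are log2 ratios, male over female or 8 wk over the younger age. A gene was called when the limma adjusted p was below 0.05, the ratio was above 1.5 or below 0.667, and either group was well above background on both arrays.

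Each limma p rests on a residual spread pooled over all 14 arrays, so the SE of a gene is the same in every comparison. The spread between the 2 pools of a comparison enters only as part of that pooled value. The sex labels were checked on sex-linked genes, and Xist was lower and Ddx3y higher in the male pool on all 6 arrays that set males against females. Hepatocyte markers such as Ttr and Hnf4a were well above background throughout. Several very bright genes differed between replicates in the direction of the dye, and this is given below where it touches a complement gene.

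Over the 7 comparisons, 14 of the 32 genes had 1 or more calls, beside 23.1% of all genes, and 18 had none. Of the terminal components, 4 were higher in adult males than in adult females, and they also rose in males from 3 to 8 wk: C6, C8a, C8b and C9. The lectin Mbl2 fell in males over the same period and was lower in adult males than in females. Of the macrophage-made members, C1qa and Cfp were lower in adult males than in adult females, and the other 5 were not called in any comparison of males with females. In females, no complement gene was called between 3 or 4 wk and 8 wk.

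At 8 wk, 8 of 31 testable complement genes were called in M8/F8, beside 6.40% of all genes tested. C6, C8a, C8b and C9 were higher in males, 4 of 31 beside 2.65% of all genes. C1qa, C3, Cfp and Mbl2 were lower, 4 of 31 beside 3.74%. The median log2 ratio of the 31 genes was -0.04, against 0.00 for all genes.

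At 4 wk, C6 was the only member called in M4/F4, 1 of 29 beside 1.58% of all genes. At 3 wk, none of 30 was called in M3/F3, beside 0.517% of all genes. Of those 30 genes, 6 had an unadjusted limma p below 0.05, where 11.8% of all genes did, and averaging weighted by the deposited errors also called 0.

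**Figure D1:**
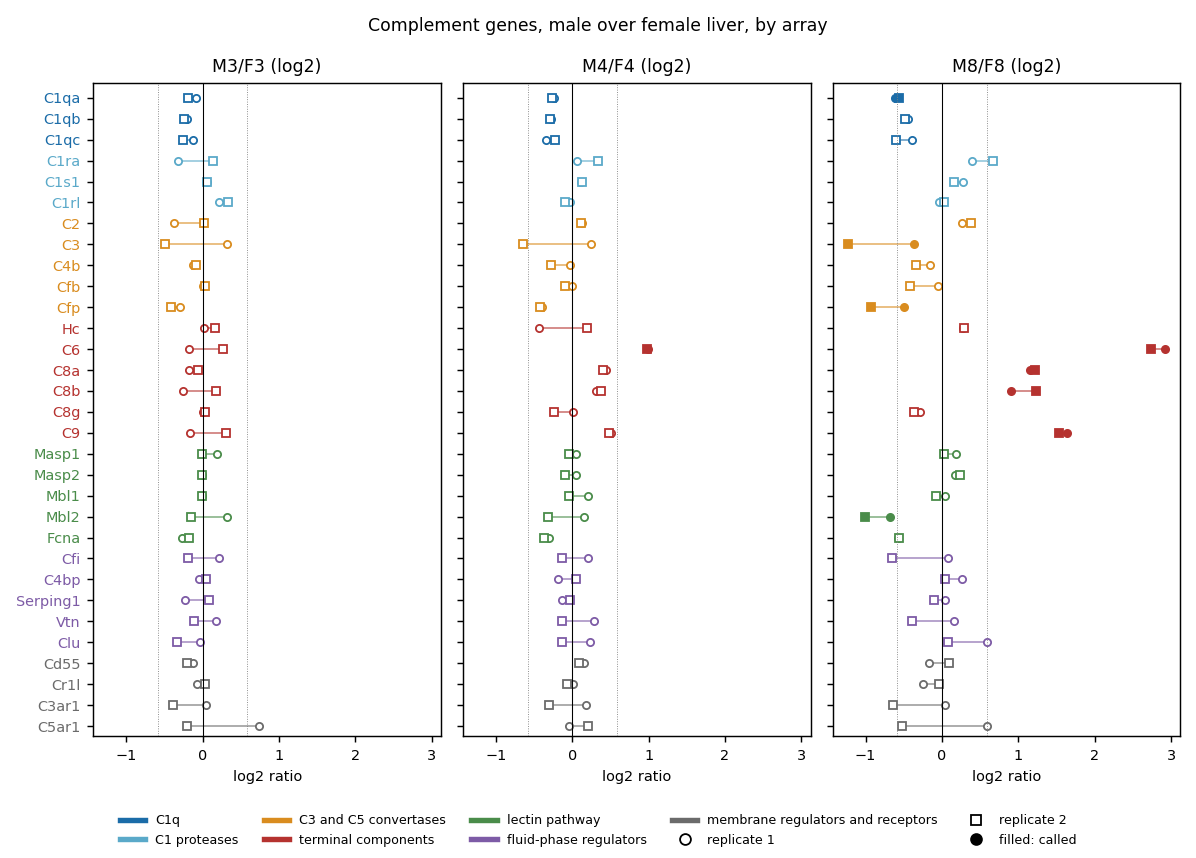
Log2 ratio of male over female liver for 31 complement genes at 3, 4 and 8 wk, with 1 row per gene coloured by role. Circles are replicate 1, squares replicate 2, filled symbols called genes, and dotted lines the ratio limits of 1.5 and 0.667; Cfd is left out because its ratios reached 6.25. At 8 wk C6 (2.91 and 2.74), C9 (1.63 and 1.54), C8a and C8b lie to the right of the upper limit on both arrays, and Mbl2 (-0.68 and -1.01) lies to the left of the lower limit.

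The terminal components form the membrane attack complex. C6 binds C5b and starts its assembly. Its log2 ratio in M8/F8 was 2.91 and 2.74 on the 2 arrays, a mean of 2.83. This was 7.10-fold higher in males (limma SE 0.14 in log2, pooled over comparisons; adjusted p = 0.000152). In M4/F4 the 2 arrays gave 1.00 and 0.97, 1.98-fold higher in males (adjusted p = 0.00543), a call lost without the second array (adjusted p = 0.0530). In M3/F3 they gave -0.18 and 0.26, with opposite signs.

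The rise of C6 with age was measured in males. M8/M3 gave 2.81 and 3.04, 7.60-fold higher at 8 wk (adjusted p = 0.000137), and M8/M4 gave 2.06 and 2.27, 4.49-fold higher (adjusted p = 0.000319). In females, F8/F3 gave -0.17 and 0.40 and F8/F4 gave 0.20 and 0.29. The 95% interval of the female log2 change from 3 to 8 wk ran from -0.23 to 0.45, below the male values.

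C9 is the component that polymerizes to line the pore. It gave 1.63 and 1.54 in M8/F8, 3.00-fold higher in males (SE 0.13 in log2; adjusted p = 0.000586). In M4/F4 it gave 0.50 and 0.49, with an adjusted p of 0.0443 but a ratio under the limit. M8/M3 gave 2.23 and 1.63, 3.82-fold higher at 8 wk (adjusted p = 0.000308), and M8/M4 gave 1.61 and 1.28, 2.73-fold higher (adjusted p = 0.000808). Female values lay between 0.23 and 0.43 on all 4 arrays.

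C8 consists of an alpha, a beta and a gamma chain, encoded by C8a, C8b and C8g. C8a gave 1.16 and 1.21 in M8/F8, 2.27-fold higher in males (SE 0.05; adjusted p = 9.46e-05). C8b gave 0.90 and 1.24, 2.10-fold higher (SE 0.08; adjusted p = 0.000401). C8g went the other way by less than the limit, with -0.29 and -0.36 (adjusted p = 0.0168), so that the genes of the 3 chains did not share a direction in adult males against females.

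From 3 to 8 wk, C8a rose in males by 1.04 and 0.80 (1.89-fold; adjusted p = 0.000172) and C8b by 0.82 and 0.41 (1.53-fold; adjusted p = 0.00284). The C8b call was lost without the first M8/M3 array, without the dye term and with normexp background correction. In females the same genes were below 0 on both F8/F3 arrays, C8a at -0.28 and -0.49 (adjusted p = 0.00318) and C8b at -0.30 and -0.72 (adjusted p = 0.00582), and neither ratio passed the limit. C8g was above 0 on both arrays of M8/M3 (0.12 and 0.33) and of F8/F3 (0.41 and 0.61). A second C8a probe gave a log2 ratio of 1.15 in M8/F8 and was called in that comparison as well as in M8/M3, and a second C8g probe gave -0.28 in M8/F8, with no call.

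Hc, which encodes C5, was called only in M8/M4, at 0.83 and 0.89 (1.81-fold higher at 8 wk; adjusted p = 0.0232), and lost that call without either of the 2 arrays and with shared pools in the covariance. In M8/F8 Hc gave 0.28 and 0.29, with an adjusted p of 0.416. Over the 6 terminal genes measured, the median log2 ratio in M8/F8 was 1.13.

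C8b and C8a lie side by side on chromosome 4 with no protein-coding gene between them, and C6 and C9 both lie on chromosome 15. The 250 bases before the RefSeq start site (GRCm38.p6) of these 4 genes are shown because all 4 were called higher in M8/F8 and in M8/M3, with matches to the searched motifs in capitals. The C6 stretch is chr15:4726960-4727209 on the + strand, C9 is chr15:6445096-6445345 on the + strand, C8b is chr4:104766067-104766316 on the + strand and C8a is chr4:104876399-104876648 on the - strand.
C6: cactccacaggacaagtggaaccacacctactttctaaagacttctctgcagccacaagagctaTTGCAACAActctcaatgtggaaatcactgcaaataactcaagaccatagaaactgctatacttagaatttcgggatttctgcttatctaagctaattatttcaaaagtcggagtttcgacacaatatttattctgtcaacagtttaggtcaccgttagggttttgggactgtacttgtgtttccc
C9: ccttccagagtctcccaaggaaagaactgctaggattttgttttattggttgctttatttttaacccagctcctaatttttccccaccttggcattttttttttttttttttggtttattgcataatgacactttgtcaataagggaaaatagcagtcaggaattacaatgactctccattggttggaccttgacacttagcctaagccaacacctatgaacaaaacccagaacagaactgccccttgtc
C8b: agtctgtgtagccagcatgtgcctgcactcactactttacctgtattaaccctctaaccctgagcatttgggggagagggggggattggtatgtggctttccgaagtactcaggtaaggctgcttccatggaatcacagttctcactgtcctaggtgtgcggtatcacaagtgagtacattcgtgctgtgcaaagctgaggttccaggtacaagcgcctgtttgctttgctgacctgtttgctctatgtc
C8a: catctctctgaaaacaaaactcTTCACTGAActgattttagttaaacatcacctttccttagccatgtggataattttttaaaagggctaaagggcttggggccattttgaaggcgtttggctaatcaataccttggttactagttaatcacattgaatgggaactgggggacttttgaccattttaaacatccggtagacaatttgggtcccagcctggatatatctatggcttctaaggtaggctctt
Capitals mark TTGCNNCAA, a C/EBP motif, in C6 and TTCNNNGAA, a STAT5 motif, in C8a. Both strands of windows from 250 bases before to 50 after the start site were searched, and no base belonged to more than 1 match. Of 32851 such windows, 2.08% held the C/EBP motif and 8.3% the STAT5 motif. Of the 25 complement genes with a window in the table, C6 and C7 held the former and C1ra, C7, C8a, Masp2 and Vtn the latter. The letters CAAAGTCCA (HNF4), TGTTTAC (FOXA) and ATCGAT (HNF6) were in none of the 25, and in 0.475%, 3.65% and 0.925% of all windows. These matches describe the letters only.

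The lectin pathway starts with mannose-binding lectins and ficolins, which bind sugars on microbes, and their proteases MASP-1 and MASP-2. Mbl2, the mannose-binding lectin C gene, gave -0.68 and -1.01 in M8/F8, 1.80-fold lower in males (SE 0.06; adjusted p = 0.000397). It gave -0.92 and -0.69 in M8/M3 (1.75-fold lower at 8 wk; adjusted p = 0.000462) and -0.91 and -0.72 in M8/M4 (1.76-fold lower; adjusted p = 0.000436). In M3/F3 and M4/F4 its 2 arrays had opposite signs. In females it gave -0.08 and 0.13 from 3 to 8 wk.

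Mbl1, the mannose-binding lectin A gene, stayed between -0.15 and 0.21 on all 14 arrays and was never called. Masp1 and Masp2 were not called either, with log2 ratios from -0.18 to 0.35 over the 7 comparisons. A further Masp2 probe, which matches another transcript of the gene, gave -0.08 in M8/F8 where the brightest gave 0.20, and 0.39 in F8/F3 where the brightest gave 0.07. Fcna, the ficolin A gene of macrophages, is described with the macrophage-made members.

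The initiating proteases of the classical pathway were compared next. C1ra, the C1r protease, gave 0.39 and 0.66 in M8/F8 (adjusted p = 0.000598), a mean of 0.53 that fell short of the ratio limit. C1s1, the C1s protease, was called in M8/M3 at 0.65 and 0.55 (1.52-fold higher at 8 wk; adjusted p = 0.000501) and gave 0.32 and 0.40 in F8/F3. The C1s1 call was lost with 6 group means, with normexp background correction and without the first M8/M3 array. C1rl, a C1r-like protease, was not called and stayed between -0.22 and 0.46. Whether the probes of C1ra and C1s1 also capture transcripts of their close copies C1rb and C1s2 was not tested.

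Of the components that cleave C3 and C5, C2 was called in M8/M3 at 0.83 and 0.39 (1.53-fold higher at 8 wk; adjusted p = 0.00486). That call was lost without the first of these arrays and with normexp background correction. Cfb, the gene next to C2 on chromosome 17, and C4b were not called in any comparison, with log2 ratios from -0.25 to 0.33. C4b cannot be separated here from its copy C4a, which had no matched probe.

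C3, the central component, gave -0.36 and -1.22 in M8/F8, 1.73-fold lower in males (SE 0.05; adjusted p = 0.000365). Its 2 arrays disagreed in size there and in sign in every other comparison, for example 0.32 and -0.50 in M3/F3 and -0.86 and 0.09 in M8/M4. The model's dye term for C3 was 0.48 in log2 red over green, and without that term the ratio in M8/F8 was the same, -0.79, with an adjusted p of 0.387. C3 was the brightest of the members, and the bright hepatocyte genes Ahsg (-0.11 and -1.47) and Alb (-0.01 and -1.13) split between the M8/F8 replicates in the same way. The dyes were exchanged between the 2 M8/F8 arrays, so that the dye term cancelled in their mean, and over all alternatives the log2 ratio stayed between -0.85 and -0.74.

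Cfd, known as adipsin and made mainly by fat cells, was near background in several groups, so that its ratios are not exact. It gave 3.20 and 6.25 in M8/F8, 4.37 and 5.81 in M8/M4, and 3.12 and 5.88 in M8/M3. It was not called in any of them, with adjusted p of 0.115, 0.0926 and 0.130, and the 2 arrays of each differed widely. F8 was not well above background on either M8/F8 array, so M8 was at least 5.06-fold higher there by the lowest measurable signal. M3 and M4 were well above background on 1 of the 2 arrays in M8/M3 and M8/M4. On the first F8/F4 array Cfd gave -6.59 and on the second 0.11, and the first M4/F4 array gave -2.69, so Cfd was also high in the first F4 pool.

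No fat cell marker was called by limma in M8/F8, M8/M4 or M8/M3, and Cidec alone had an unadjusted p below 0.05, in all 3. Cidec, a lipid droplet gene, gave 0.74 and 2.93 in M8/F8, 1.25 and 2.92 in M8/M4 and 1.30 and 2.89 in M8/M3, with the larger value on replicate 2 as for Cfd. Adipoq, which encodes adiponectin, gave -0.26 and 3.24 in M8/F8. Fabp4, a fatty acid carrier of fat cells, gave -0.11 and 1.07 in M8/F8, -0.56 and 0.46 in M8/M4 and -0.69 and 0.26 in M8/M3, with means below 0 in the latter 2. All 6 listed markers had a probe, and the 3 testable in M8/F8 had log2 ratios from 0.48 to 1.84. In M8/M3 the 3 testable markers ran from -0.22 to 2.10, with Retn at 2.05. In M8/M4 the 3 testable markers ran from -0.05 to 2.08, with Plin1 at 0.89. The part of fat tissue in the Cfd values was not tested.

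Of the fluid-phase regulators, Serping1, the C1 inhibitor, was called in M8/M3 at 0.84 and 0.50 (1.59-fold higher at 8 wk; adjusted p = 0.00344). It gave 0.55 and 0.51 in F8/F3 (adjusted p = 0.00826), under the ratio limit, and 0.03 and -0.11 in M8/F8. Without the first M8/M3 array it lost its call there, and without the first F8/F3 array it gained a call in females.

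Clu, which encodes clusterin, an inhibitor of the membrane attack complex, rose in males by 0.69 and 1.02 from 3 wk (1.81-fold; adjusted p = 0.00118) and by 0.48 and 0.74 from 4 wk (1.53-fold; adjusted p = 0.00409). The call from 4 wk was lost when the pools that comparisons share entered the covariance (adjusted p = 0.0906). Female values were 0.24 and 0.28, and 0.29 and 0.33. Vtn, encoding vitronectin, Cfi, the protease that degrades C3b and C4b, and C4bp, its cofactor, were not called, with log2 ratios from -0.34 to 0.15. The membrane regulators Cd55 and Cr1l were not called, at -0.29 to 0.12.

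**Figure D2:**
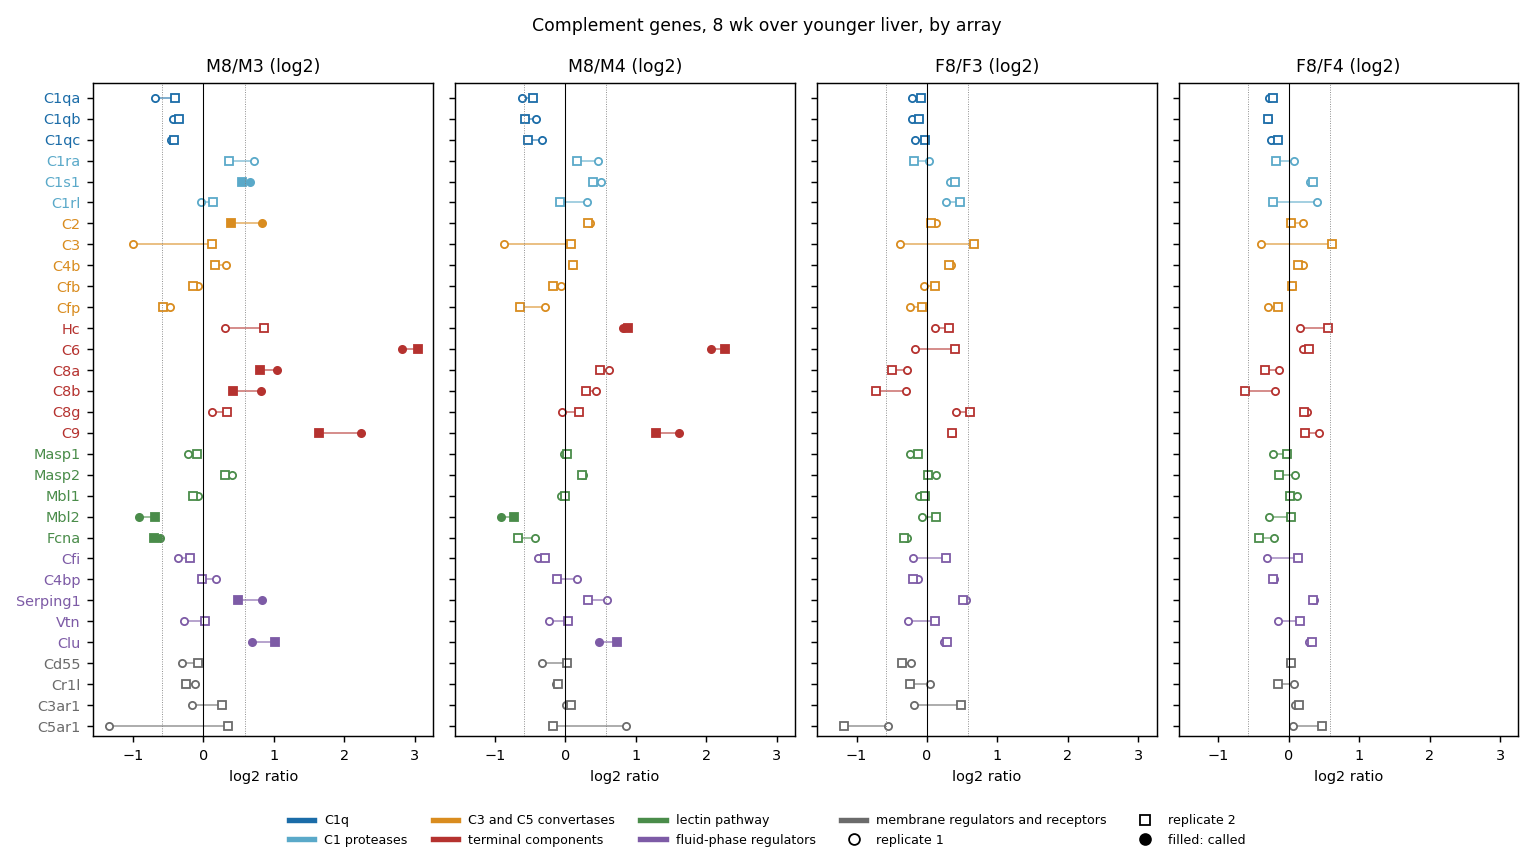
Log2 ratio of 8-wk over younger liver for 31 complement genes, males in the left 2 panels and females in the right 2, with symbols, colours and limits as in the plot of male over female ratios and Cfd left out. C6, C9 and Clu are called in both male panels on the right side and Mbl2 on the left side, and no symbol is filled in the female panels.

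In M8/M3, 10 of 32 genes were called, beside 17.8% of all genes: 8 rose (C1s1, C2, C6, C8a, C8b, C9, Clu and Serping1), beside 7.81%, and 2 fell (Fcna and Mbl2), beside 10.0%. Of the 8 that rose, all are hepatocyte-made. In M8/M4, 5 of 32 were called, beside 10.8%: C6, C9, Clu and Hc rose, beside 4.44%, and Mbl2 fell, beside 6.38%. Without the first M8/M3 array, 6 genes remained called in M8/M3 (C6, C8a, C9, Clu, Fcna and Mbl2), all among the 10.

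In females none of 31 genes was called in F8/F3, beside 11.7% of all genes, or in F8/F4, beside 6.00%. At an unadjusted limma p below 0.05 there were 15 and 14 of the 31, where 51.8% and 39.3% of all genes passed. With no limit on the ratio 9 and 8 members had an adjusted p below 0.05, beside 33.7% and 21.3% of all genes, and error-weighted averaging called 0 in each. Of these, Serping1 (0.53), C8b (-0.51) and C8g (0.51) lay farthest from 0, all from 3 to 8 wk.

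The difference between the male and the female change was tested as an interaction. From 3 to 8 wk, 7 of 32 genes were called, beside 2.72% of all 19751 genes. Unlike the shares above, this one includes genes not above background. Males and females were on different arrays. The male minus female log2 change was 2.81 ± 0.20 (SE) for C6 (adjusted p = 0.00185), 1.58 ± 0.18 for C9 (0.00769), 1.30 ± 0.07 for C8a (0.000968) and 1.13 ± 0.11 for C8b (0.00444). It was 0.62 ± 0.06 for C1ra (adjusted p = 0.00446), 0.59 ± 0.12 for Clu (0.0429) and -0.83 ± 0.08 for Mbl2 (0.00577). With single arrays left out, the Clu call held only for those of M8/F8. The C1ra and C9 calls were lost without the first F8/F3 array. A second C1ra probe gave a male minus female change of 0.32 ± 0.10 with no call (adjusted p = 0.133), and the C1ra call was also lost with the mean of both probes (0.47) and with normexp background correction (0.52). Without the dye term, the C1ra, C8b, Clu and Mbl2 calls were lost. Error-weighted averaging, with its own threshold, lost the C1ra and Clu calls. The Clu call was also lost with 6 group means, shared pools in the covariance and normexp background correction. For C8a and C8b the male and the female change had opposite signs on every array of M8/M3 and F8/F3.

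From 4 to 8 wk, 5 genes were called, beside 1.14% of all 19751 genes, again with no filter on background. The male minus female change was 1.92 ± 0.20 for C6 (adjusted p = 0.0111), 1.12 ± 0.18 for C9 (0.0379), 0.79 ± 0.07 for C8a (0.00805), 0.77 ± 0.11 for C8b (0.0266) and -0.70 ± 0.08 for Mbl2 (0.0173). This count depended on single arrays. Leaving out the second M8/M4 or the second F8/F4 array left only C8a called, and leaving out the first F8/F4 array left C6 and C8a. Leaving out any array of M8/F8 or F8/F3 left C6, C8a and Mbl2. Error-weighted averaging, with its own threshold, kept C6 and C9 and lost C8a, C8b and Mbl2. With shared pools in the covariance the C8b and Mbl2 calls were lost. A replicate block lost the C9 call and a slide block the C8b and C9 calls. Without the dye term the C8b, C9 and Mbl2 calls were lost.

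**Figure D3:**
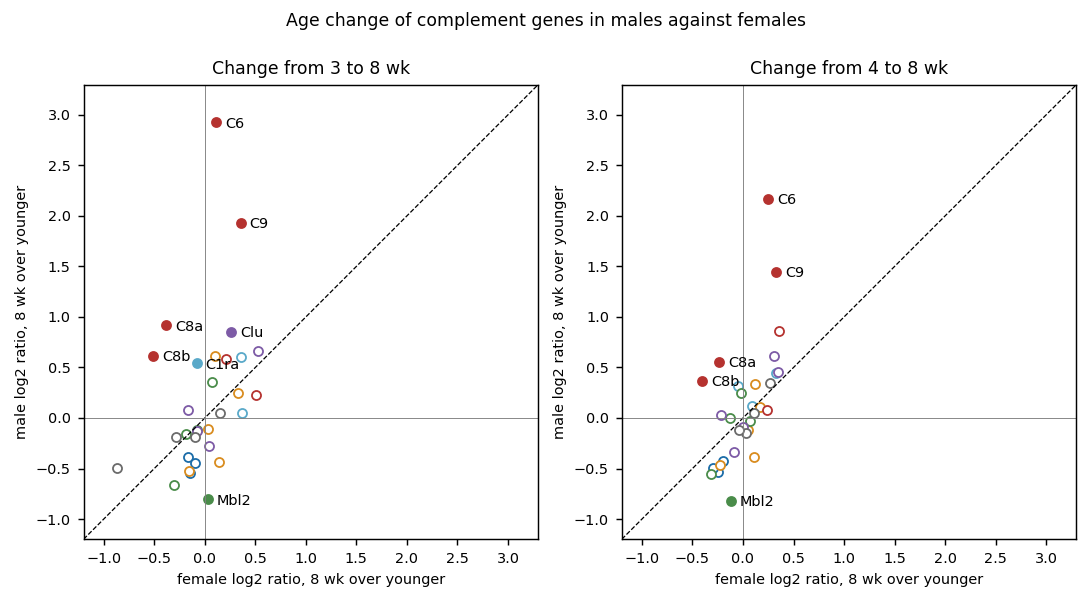
Fitted log2 change to 8 wk in males (vertical axis) against females (horizontal axis) for 31 complement genes without Cfd, from 3 wk on the left and from 4 wk on the right; the dashed line marks equal change, colours are the roles of the other plots, and filled, named points had a called interaction. From 3 wk, C6 lies at 2.93 in males and 0.11 in females, C9 at 1.93 and 0.35, and Mbl2 at -0.81 and 0.03.

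The macrophage-made members were C1qa, C1qb and C1qc, which encode the chains of C1q, Cfp (properdin, which stabilizes the alternative pathway enzyme), Fcna and the receptors C3ar1 and C5ar1. In M8/F8, C1qa was called at -0.62 and -0.57 (1.51-fold lower in males; adjusted p = 0.000840), just past the ratio limit. C1qb gave -0.44 and -0.49 (adjusted p = 0.000914) and C1qc -0.39 and -0.61 (adjusted p = 0.00564), both short of the limit. The 3 chains thus lay close together, and the call of C1qa alone sets no difference between them.

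Cfp was called in M8/F8 at -0.50 and -0.92 (1.63-fold lower; adjusted p = 0.00840), but not without the second array. Fcna gave -0.57 and -0.57 in M8/F8 (adjusted p = 0.00112), under the limit, and was called in M8/M3 at -0.61 and -0.71 (1.58-fold lower at 8 wk; adjusted p = 0.000671). C3ar1 and C5ar1 were dim and not called, and their replicates had opposite signs in most comparisons. C1qa lost its M8/F8 call without the first array, with normexp background correction, and with a fit of 6 group means.

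All 6 testable macrophage-made members had a mean below 0 in M8/F8, with a median of -0.53. The same held for all 6 in M3/F3 (median -0.21) and all 5 in M4/F4 (median -0.28). Of the 22 hepatocyte-made members, 10 were below 0 in M8/F8, with a median of 0.13, and 11 in M3/F3, with a median of 0.00. No test was made of these counts or of the difference between the groups.

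Macrophage markers were set beside these genes. Of 14 listed markers, none of them a complement gene, 13 had a probe. All 13 were below 0 in M3/F3 (median -0.26) and all 12 testable in M4/F4 (median -0.24), with Marco the only one called, in M4/F4. In M8/F8, 12 of 13 were below 0, from -1.05 to 0.07 with a median of -0.59, and Adgre1, Clec4f, Lyz2, Marco and Timd4 were called lower in males, 5 of 13 beside 3.74% of all genes. Clec4f, a defining marker of Kupffer cells, gave -0.38 and -0.80.

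In males from 3 to 8 wk, the macrophage-made members had a median of -0.50 and the markers one of -0.23, with markers ranging from -2.20 to 0.76. In females the medians were -0.15 and -0.02. Hepatocyte markers had a median of -0.18 in M8/M3 where the hepatocyte-made members had 0.30. In M8/F8 these medians were -0.38 and 0.13.

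Markers of other cells also differed between the groups. Of the neutrophil markers, 5 of 8 were called lower in males in M3/F3 (median -0.73), beside 0.517% of all genes called, and the median in M8/F8 was -0.30. In M8/M3, 6 of 8 were called lower at 8 wk (median -2.06), beside 10.0%, and in F8/F3 6 of 9 (median -2.56), where 11.7% of all genes were called in either direction. Of the mesenchymal markers, 6 of 10 were called lower in M8/M3 (median -0.78) and 5 of 10 in F8/F3 (median -0.61), beside the same shares of all genes, and the median in M8/F8 was -0.19. The part of macrophages, neutrophils or mesenchymal cells in the C1q, Cfp and Fcna values was not tested.

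**Figure D4:**
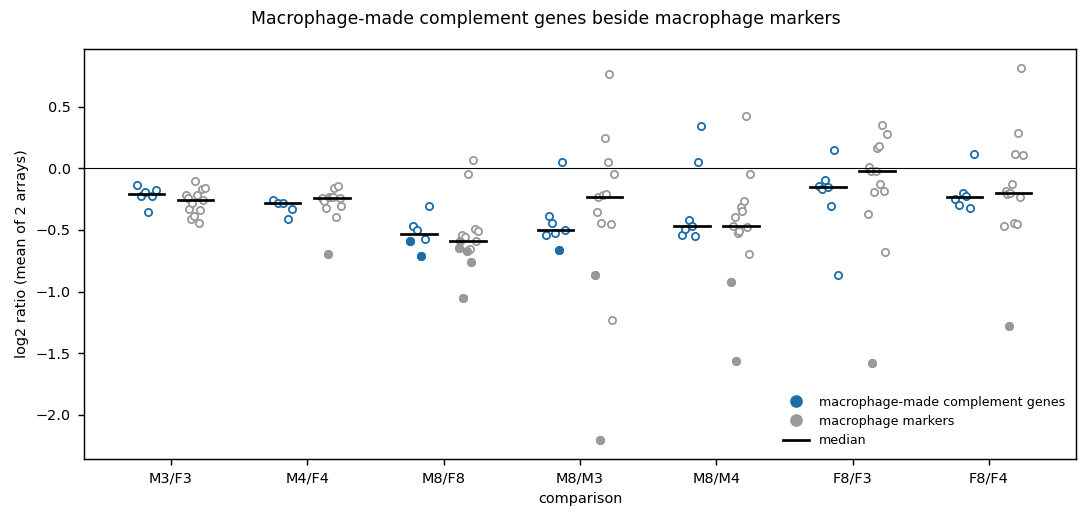
Log2 ratio (mean of 2 arrays) of testable macrophage-made complement genes (blue) and macrophage markers (grey) in each of the 7 comparisons; filled points were called and black bars are medians. Both sets lie below 0 in M3/F3 and M4/F4 and have medians of -0.53 and -0.59 in M8/F8.

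Other genes of the system were read from a further list of 27, of which 25 had a probe and C4a and Cfhr3 none. In M8/F8, 1 of 22 was called, Susd4, a sushi-domain inhibitor of complement, at 1.71 and 2.41 (4.16-fold higher in males; adjusted p = 0.00133), beside 2.65% of all genes called higher. Susd4 also rose in males by 2.94 and 3.08 from 3 wk (8.06-fold; adjusted p = 0.000360) and by 2.28 and 2.86 from 4 wk (5.92-fold; adjusted p = 0.000613). In females it gave 0.41 and 0.16 from 3 wk and 0.45 and 0.56 from 4 wk. In M3/F3 it gave -1.02 and -0.48 (adjusted p = 0.0574), below 0 on both arrays, unlike in M8/F8. Its interaction was 2.73 ± 0.29 from 3 to 8 wk (adjusted p = 0.00673) and 2.06 ± 0.29 from 4 to 8 wk (adjusted p = 0.0282).

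In M8/M3, C1s2, Colec12 and Susd4 were among the genes of this list that rose, and Cd93 and Cr2 fell. A second Cr2 probe was not called, at -0.17 in M8/M3 (adjusted p = 0.265) and -0.29 in F8/F3 (adjusted p = 0.0694), where the brightest gave -0.62 and -0.72. C1s2, the copy of C1s1, gave 0.73 and 0.65 (adjusted p = 0.000166). In M8/M4, 2 of 22 rose, Susd4 and the receptor C5ar2 (1.20 and 0.72), beside 4.44% of all genes. A second C5ar2 probe was not called (adjusted p = 0.0599). None of 22 was called in M3/F3, beside 0.517% of all genes, or in M4/F4, beside 1.58%. At an unadjusted limma p below 0.05 there were 5 and 7 of the 22, where 11.8% and 21.1% of all genes passed.

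In F8/F3, 5 of 23 were called, beside 11.7% of all genes. Cd59a and Cd59b, which block the membrane attack complex on host cells, rose by 0.48 and 0.71 (adjusted p = 0.000501) and by 0.52 and 0.92 (adjusted p = 0.0224). In males the same genes gave 0.20 and 0.26, and 0.24 and 0.64, without a call, and neither interaction was called (adjusted p = 0.0298 for Cd59a with a ratio under the limit, and 0.580 for Cd59b). Cd93, Cr2 (by its brightest probe) and Fcnb fell in F8/F3. Fcnb was not well above background at 8 wk, and 3-wk females were at least 1.12-fold higher by the lowest measurable signal. Cd93, a receptor of endothelial and myeloid cells, fell in both sexes, by 0.73 and 0.56 in M8/M3, by 0.54 and 0.74 in F8/F3, and was the only 1 of 22 called in F8/F4, beside 6.00% of all genes, at -0.58 and -0.59.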

How the data were processed

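Two-colour Agilent whole mouse genome arrays were hybridized with amplified, dye-labelled liver RNA. For each spot the authors deposited scanner intensity values and a log10 ratio of red over green with its modelled error; Feature Extraction had subtracted the background and balanced the dyes by linear and LOWESS steps. The deposited series table held the same ratios (largest difference 0). The authors' Rosetta error model was not used here. Ratios were converted to log2, turned by the dye given in the labels, and averaged over spots of a probe. The 39429 probes were fitted in limma 3.58.1 (R 4.3.3) with 7 comparison terms and a dye term, and p-values were adjusted by Benjamini-Hochberg over all probes and comparisons, or within each interaction; interactions had no filter on background. Between 55.2% and 77.2% of probes per channel were well above background, no spot was saturated, and the number of arrays limits the precision. Fits were tested on simulated data.

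Gene names came from matching probe accessions to RefSeq; 26055 probes had a symbol and 13374 had none. The members, gene lists and motifs were chosen with earlier results of these data known. All 33 members were accounted for by role; array values are given for members called or with a called interaction, and for dim or disagreeing probes. Other genes were named only where called or as defining markers. A withheld item is not reported here. Bounds used normexp intensities after loess and Aquantile normalization. Samples with the same replicate number came from shared pools of a group: correlations of their deviations between comparisons ran from -0.557 to 0.689, with only 2 numbers. In closed loops of comparisons, replicate differences from age arrays and from sex arrays correlated at 0.913 (3 wk) and 0.904 (4 wk). The main fit treated arrays as independent, whereas the fit with shared pools put pool variance at 4.58 times array variance. Alternatives were leaving out each array, blocks for replicate or slide, no dye term, 6 group means, shared pools in the covariance, normexp with an offset of 50, error-weighted averages at an unadjusted p below 0.0001, other filters and thresholds, and the mean of all probes.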

Additional observations from a re-analysis of the deposited data

Results flagged for a closer look

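The male and the female change with age differed by the interaction test for 7 complement genes and for Susd4. From 3 to 8 wk the male minus female log2 change was 2.81 for C6, 1.58 for C9, 1.30 for C8a, 1.13 for C8b, 0.62 for C1ra, 0.59 for Clu, -0.83 for Mbl2 and 2.73 for Susd4. From 4 to 8 wk it was 1.92 for C6, 1.12 for C9, 0.79 for C8a, 0.77 for C8b, -0.70 for Mbl2 and 2.06 for Susd4. Groups of 2 arrays were too small for a check of single outlying samples.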

How the results depend on the processing

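In 468 checks of 36 called gene results under other settings, none changed direction, 409 kept the call and 59 lost it. Dropping the limit on the ratio or the filter on background only loosened the rule. Those checks could not lose a call or change a direction, and they count among the 409. With no limit on the ratio, the members called were 8 in F8/F4, 9 in F8/F3, 18 in M8/M4, 18 in M8/M3, 15 in M8/F8, 9 in M4/F4 and 2 in M3/F3, where 21.3%, 33.7%, 29.6%, 42.0%, 21.8%, 7.91% and 2.89% of all genes passed. Shared pools in the covariance left 3 in M8/M4 (Clu and Hc lost) and 3 interactions from 4 to 8 wk (C8b and Mbl2 lost). Without a dye term, 3 interactions remained from 3 to 8 wk and 2 from 4 to 8 wk, and error-weighted averages gave 3 from 4 to 8 wk (C6 and C9 kept, C8a, C8b and Mbl2 lost, Cfd gained). A slide block, for scan day and replicate, left 3 from 4 to 8 wk. With the replicate block, the paired fit, counts were 9 in M8/F8, 12 in M8/M3, 6 in M8/M4 and 7 and 4 for the interactions, so no count moved by over 1.5 times; C9 lost its interaction from 4 to 8 wk. Leaving out each array in turn gave 0 to 1 genes in M4/F4 (0 without replicate 2), 7 to 9 in M8/F8, 4 to 7 in M8/M4, 6 to 11 in M8/M3, 0 to 1 in F8/F3 (Serping1 without replicate 1), 5 to 7 interactions from 3 to 8 wk (without F8/F3 replicate 1, 4 of the 7 kept and C3 gained) and 1 to 4 from 4 to 8 wk. The other counts stayed within 1.5 times. The cause of these shifts was not tested. Signal near background limits Cfd, C5ar1 and C3ar1.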
